A study of Mus musculus with 8 samples.

Results

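The genes described here encode the proteins of the cytosolic ribosome, measured in pre-germinal center (pre-GC) B cells of the mouse. Members were the gene symbols that start with Rpl or Rps followed by a number, with an optional a, x or l and a further digit, together with Rplp0, Rplp1, Rplp2 and Rpsa, and symbols of pseudogenes written with -ps were left out. This rule used names only and gave 87 of the 24259 symbols counted, of which 36 belong by name to the small subunit and 51 to the large subunit. The study asked how B cells differ when the T cells that help them lack one copy of Bcl6, the transcription factor of follicular helper T cells. Recipients were CD45.1 Sap-/- mice, which cannot form germinal centers with T cells of their own, and they had received OT-II T cells, which recognise ovalbumin, before subcutaneous immunization with NP-OVA plus LPS in alum. The HET group was helped by CD4-CrexBcl6fl/+ T cells, in which Cre driven by CD4 deletes one floxed allele, and the WT group by CD4-Cre T cells with intact Bcl6. NP+IgDlowB220+ B cells (C57BL/6 in the labels) were sorted from lymph nodes on day 3, as 4 libraries of about 200 cells per group. All recipients of a group were pooled before sorting, so the spread and the p-values below describe repeated sorts and libraries of a pool. A difference between groups and a difference between pools cannot be told apart. The deletion lay in the T cells, so no targeted gene was there to be checked in the sequenced cells.

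Ribosomal proteins are made in the cytosol, imported into the nucleolus and built there onto ribosomal RNA, and a complete subunit holds most of them in a single copy. Most of their mRNAs begin with a C followed by a run of pyrimidines, the terminal oligopyrimidine (TOP) motif, through which the kinase mTOR sets their translation, while Myc raises transcription of their genes. B cells that receive antigen and T cell help activate both mTOR and Myc and enlarge before they divide, and ribosome production is a well known part of that growth.

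The 8 libraries held 6652386 to 12559189 counts each. Levels per library are given as CPM (counts scaled to a common library size). B cell markers were high, with 10785 to 15157 CPM for Cd74, the invariant chain, and 3209 to 3999 CPM for Cd79a. The 6 B cell markers summed to 19896 to 21226 CPM in HET and 22923 to 25195 CPM in WT, without overlap. Cd74 made up the largest part of this sum, and the single markers are not compared between groups here. T cell markers summed to 37.6 to 216 CPM, erythroid markers to at most 9.33 CPM and myeloid markers to at most 430 CPM, the last in WT replicate 2. Markers of antibody-secreting cells summed to 1917 CPM in HET replicate 1 and to 165 to 433 CPM in the others.

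As a group the members were among the most abundant transcripts of these cells. Levels of different genes are compared here on the TPM scale, which divides counts by gene length before scaling to a common total. The lengths behind the deposited TPM were inferred from counts over TPM in HET replicate 1. A common factor was set so that the median gene matched its annotated exon length, with the exons of all transcripts joined. The inferred lengths came within 5% of that exon length in the annotation used here for 1 of the 87 members. The order of genes thus depends on which lengths are used. The highest mean TPM over the 8 libraries belonged to Rps27, a zinc-binding protein of the small subunit, at 12941 ± 910 (SD, n = 8). Rpl41, the smallest protein of the large subunit, followed at 9476 ± 365, Rps29 at 7589 ± 479 and Rpl13 at 6393 ± 347. Rpl41 and Rps29 differed by more than their spread, and Rps29 and Rpl13 did too. With counts divided by annotated exon length the order was Rps29, Rplp1, Rps27, Rpl36 and Rpl41, with Rpl13 in place 11. The median member had 1606 TPM, and 64 of 87 had at least 1000. The lower and upper quartile of members lay at 1109 and 2392 TPM.

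Members with low values were mostly retrocopies or genes that share exons with another annotated gene. In the GENCODE M21 annotation (GRCm38), 81 members are protein coding and 6 are processed pseudogenes, namely Rpl6l, Rpl32l, Rps3a2, Rps3a3, Rps4l and Rps12l1. Among the coding members, Rpl24, a late-joining protein of the large subunit (named after its values were seen), had 0.804, 0.777, 1.35 and 0.455 CPM in HET and 2.19, 1.73, 1.64 and 3.24 CPM in WT. Rps10, a small-subunit protein, had 3.89 to 7.22 CPM, and Rpl13a had 25.4 to 41.7 CPM. In the annotation, 83.4% of the coding bases of Rpl24 (chr16:55966275-55971435, plus strand) also lie in exons of Gm28037 on the same strand. The like share was 80.1% for Rps10 (chr17:27630418-27636669, minus strand), shared with RPS10-NUDT3, and 90.3% for Rpl13a (chr7:45125558-45128761, minus strand), shared mainly with Gm45713. These partner genes had no row in the count table, and whether counting left out reads of shared exons was not tested. For Rps10, rows named as its pseudogenes held 86.1% of the counts of gene and pseudogenes together, the only member for which that share exceeded 10%. Levels of Rpl24, Rps10 and Rpl13a are therefore given as counted, without a reading of how much mRNA the cells held. Across the family, 52 members had rows for pseudogenes of the same name, 190 rows in all, and how reads shared with such copies were assigned is not stated.

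The members lie on 19 chromosomes, with 15 of them on chromosome 7. Many carry genes of small nucleolar RNAs, which guide the modification of ribosomal RNA, within their introns. Such a gene lay inside 30 of the 81 coding members (37.0%), against 1.53% of the 14603 protein-coding genes of the table found in the annotation, and Rpl4 held 5 of them.

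Start sites were examined because the TOP motif begins there. RefSeq promoters (GRCm38.p6) were given for 62 of the 87 members. A C within 5 bases of the annotated start, followed by at least 4 bases that are C or T, was found on the sense strand for 30 of them (48.4%), against 21.2% of all 27025 genes with a promoter and 23.8% of tested genes that are no members. The motif CCGGAAG, the core bound by ETS family factors, was sought on either strand from 250 bases before to 50 bases after the start. It occurred in 41.9% of members, 9.9% of all genes and 22.0% of other tested genes. The windows below show 30 bases before and 20 bases from the annotated start, 5′ to 3′ on the strand of the gene, for a core member, its paralogue, the substrate of S6 kinase and a stalk protein. Capitals mark the C and the pyrimidine run. Each window shown holds the motif, unlike the starts of Rpl41, Rpl22 and Rpl7l1 and the second start of Rps27l.
Rps27 (chr3:90213629-90213678, minus): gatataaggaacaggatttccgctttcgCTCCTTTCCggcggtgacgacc
Rps27l (the first of 2 RefSeq starts, chr9:66946056-66946105, plus): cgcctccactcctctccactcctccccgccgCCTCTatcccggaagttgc
Rps6 (chr4:86857348-86857397, minus): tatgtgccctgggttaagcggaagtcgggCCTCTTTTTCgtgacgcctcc
Rplp2 (chr7:141447621-141447670, plus): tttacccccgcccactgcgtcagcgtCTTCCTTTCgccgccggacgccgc
The capitals span 9 bases in Rps27 and Rplp2 and 10 in Rps6, and 5 in Rps27l. Annotated starts are often off by some bases, so a match is a description of these letters only.

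Next, the summed share of all counts that fell on the 87 members was compared between libraries. It was 11.67%, 11.91%, 11.83% and 11.01% in HET replicates 1 to 4 and 11.68%, 11.84%, 10.47% and 11.01% in WT replicates 1 to 4. The groups overlapped, and 5 libraries lay close together while HET replicate 4, WT replicate 4 and above all WT replicate 3 were lower. HET libraries averaged 11.6% ± 0.410 and WT libraries 11.2% ± 0.631 (SD, n = 4 each). The difference of 0.353 percentage points was smaller than the pooled SD within groups of 0.532. Without WT replicate 3 it fell to 0.0930. As a share of TPM the members held 17.4% ± 0.866 in HET and 17.4% ± 0.778 in WT. Counting error was small beside this spread, with an exact (Clopper-Pearson) 95% interval from 11.80% to 11.85% in HET replicate 3, the library with the fewest counts. The subunits kept step with each other, since small-subunit counts divided by large-subunit counts ranged only from 0.770 to 0.791 over the 8 libraries.

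**Figure D1:**
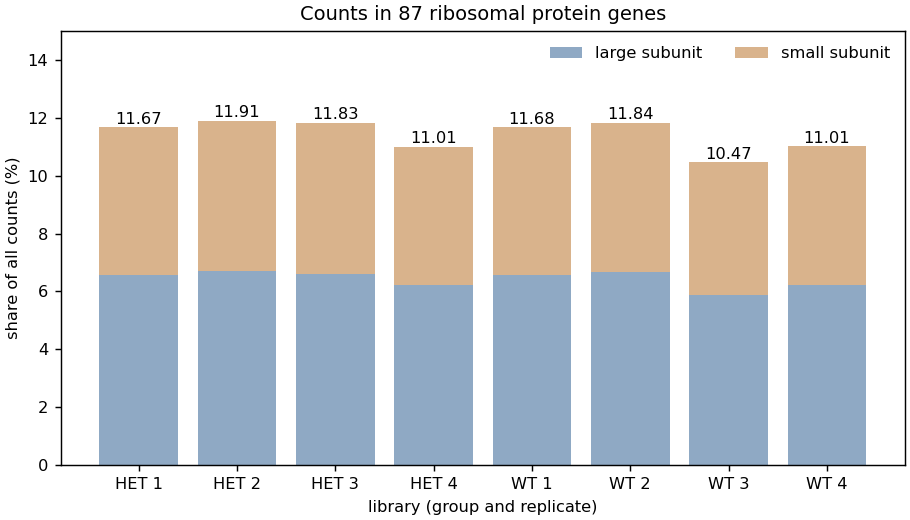
Share of all counts (%, from 0) that fell on the 87 ribosomal protein genes, in each of the 4 HET and 4 WT libraries, split into large subunit (lower part of a bar) and small subunit (upper part). The totals range from 10.47% in WT replicate 3 to 11.91% in HET replicate 2, and both groups hold libraries near 11.01% and above 11.6%.

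The members rose and fell together from library to library. Of 81 members with a mean of at least 50 counts, only 3 lay above their own median over the 8 libraries in WT replicate 3. The median deviation of the members there, taken from each gene's mean log2 CPM, was -0.16. WT replicate 3 was the lowest library for 53 of these 81 members (65.4%), but for 16.4% of the 165 other genes with a mean of at least 500 CPM. The median deviation of those 165 genes there, taken from each gene's median instead of its mean, was -0.01 on the log2 scale. HET replicate 4 was lowest for 16.0% of the members and for 29.7% of those 165 genes. Among the 1597 other genes with a mean of at least 100 CPM, WT replicate 3 was lowest for 19.4%, the most of any library, and HET replicate 4 for 16.4%. HET replicate 4 also held the highest share of counts on the ribosomal RNA row, 9.90% against 6.85% to 7.84% elsewhere. The low level in WT replicate 3 covered both subunits and members of high and low abundance, such as Rplp0 (3181 CPM, against 3514 on average in WT), Rps6, Rps19 and Rpl22. The exceptions were Rpl5, at 1795 CPM there against a WT mean of 1721 CPM, Rpl7l1, at 131 CPM against 129 CPM, and the retrocopy Rps4l, at 13.8 CPM against 12.1 CPM. Summed T cell markers were also lowest in WT replicate 3, at 37.6 CPM, and highest in HET replicate 2, at 216 CPM, the libraries with the lowest and the highest share of members. The 3 libraries with the lowest member share, WT replicates 3 and 4 and HET replicate 4, were the 3 with the lowest T cell markers (37.6, 64.0 and 105 CPM). HET replicate 1, with a member share of 11.67%, followed closely at 113 CPM. The part of T cell markers in the result was not tested. In such bulk samples, fewer cells of a type and less RNA per cell cannot be told apart.

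**Figure D2:**
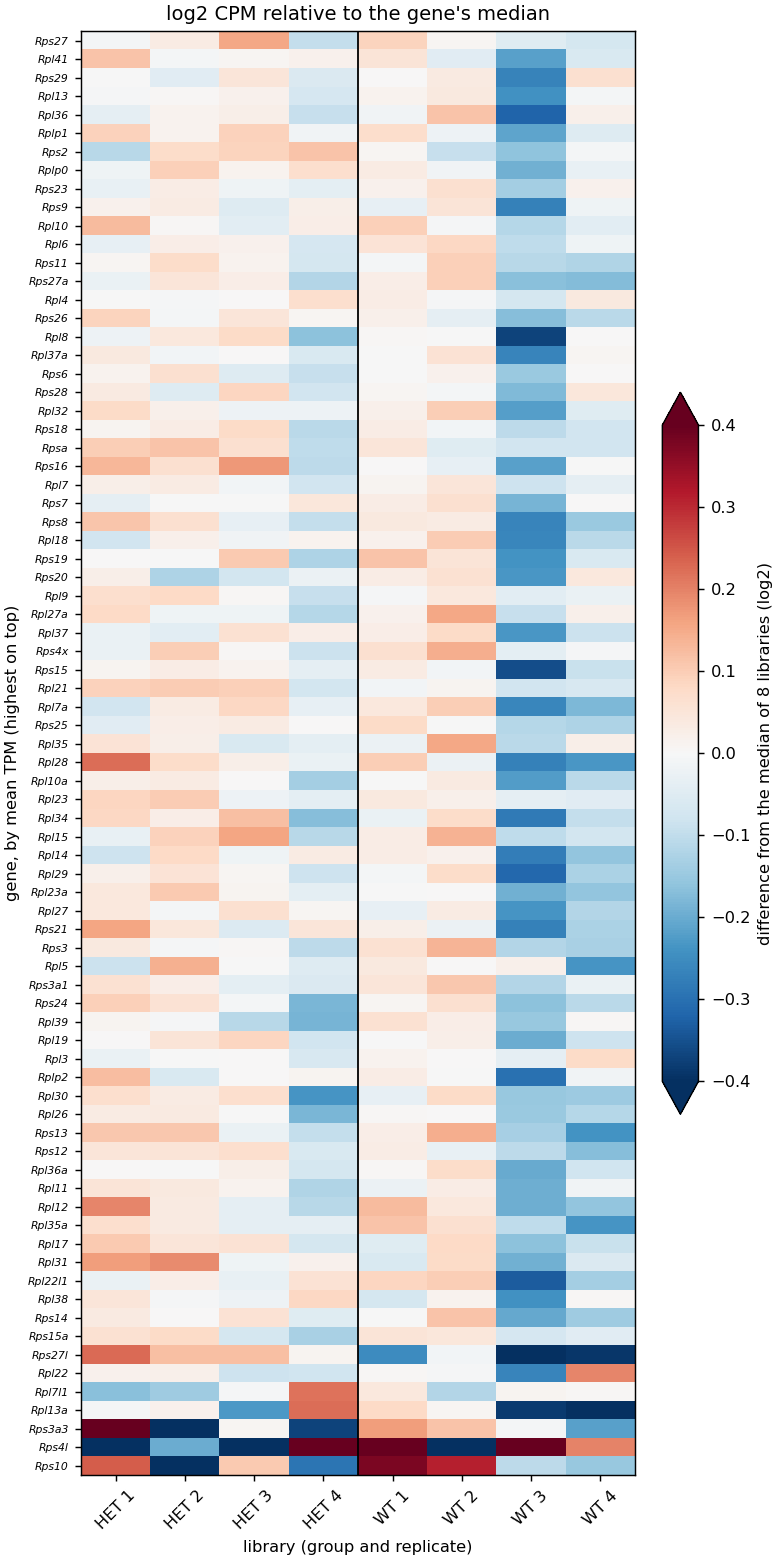
Color gives the log2 CPM of each of 78 members with a mean of at least 50 counts (rows, highest mean TPM on top) in each library (columns) minus the gene's median over the 8 libraries, with blue below and red above, clipped at 0.4 in either direction. The column of WT replicate 3 is blue for nearly all genes, while the 4 lowest rows (Rpl13a, Rps3a3, Rps4l and Rps10, all under 50 CPM on average) vary in no shared pattern.

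To ask whether help by the different T cells went with a different level of any ribosomal protein mRNA, each member was compared between HET and WT in a fit across all 12744 genes with enough counts. Of the 87 members 85 were tested. None passed the edgeR quasi-likelihood test at an adjusted p under 0.05, where 0.0235% of all genes did. DESeq2 called 0 of 83 members, where it called 0.656% of all genes. At an unadjusted edgeR p under 0.05, 1 member (Rps27l) had a higher level in HET, beside 3.34% of all genes, and 0 members had a lower one, beside 3.88%. All HET libraries lay above all WT libraries for 1 member, again Rps27l (1.99% of all genes), and below them for 1 member, Rpl24 (2.62% of all genes). With 85 members such shares amount to few genes, so counts of 0 or 1 are not read as a result about the members.

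The estimated differences were small. The log2 fold change of HET over WT was above 0 for 67 of 85 members (78.8%, against 49.9% of all genes). On log2(TPM + 1) it was above 0 for 39 of 85 members (45.9%), against 44.2% of all genes. The zero point differed between the scales, since the median of all genes was -0.00 on counts and -0.03 on TPM, while that of the members was 0.04 and -0.00. Relative to all genes the members' median was thus 0.046 higher on counts and 0.030 higher on TPM, and 67 and 65 of the 85 members lay above the median of all genes. Leaving out WT replicate 1, WT replicate 2, WT replicate 3 or HET replicate 4 moved this small shift more than the scale did. The shift was 0.068 without WT replicate 1 and 0.064 without HET replicate 4. Without WT replicate 3 it was 0.008, with 63.5% of members and 51.2% of all genes above 0, and without WT replicate 2 it was 0.075, with 88.2% of members and 50.6% of all genes above 0. No direction for the family is drawn from them. The precision between repeated sorts of a pool allows a statement on size, which does not include variation between mice. Among the 81 members with a mean of at least 50 counts, the 95% interval of the log2 fold change lay within 0.25 of 0 for 53 members, within 0.5 for 76 and within 1 for 78. The 3 that could not be bounded by 1 were the retrocopies Rps3a3 and Rps4l and the sparsely counted Rps10. The median standard error was 0.07.

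**Figure D3:**
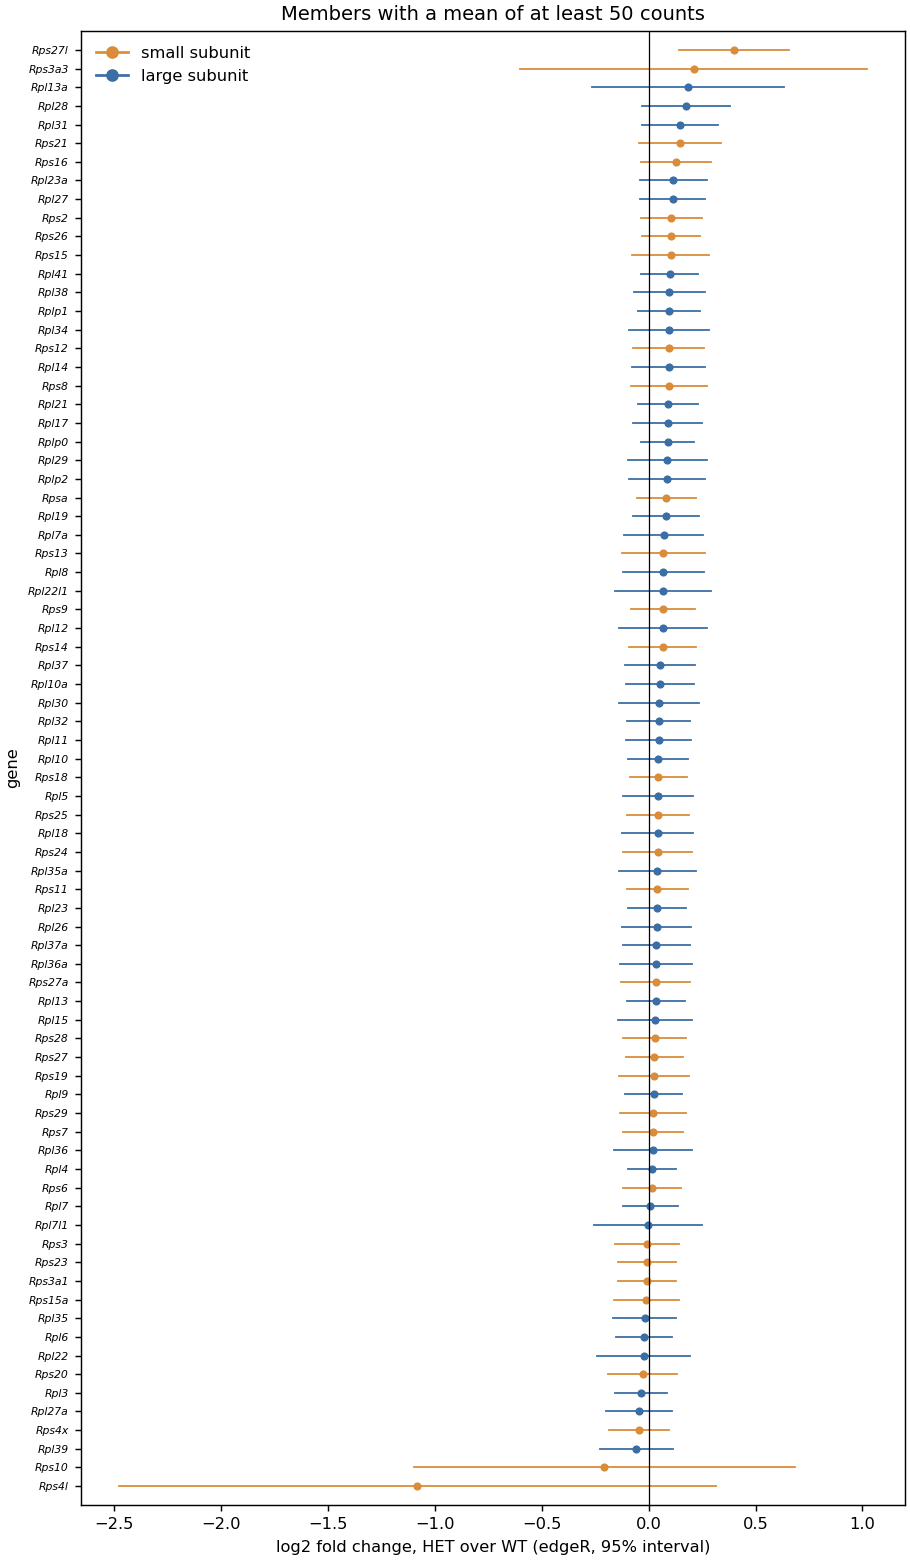
Log2 fold change of HET over WT with its 95% interval (edgeR on counts, 4 libraries per group) for 78 members with a mean of at least 50 counts, ordered by the estimate, with small-subunit genes in orange and large-subunit genes in blue. Rps27l alone has an interval that leaves out 0, before any adjustment. Most other points lie to the right of 0 by less than their interval, and 67 of 85 members lie above the median of all genes on counts and 65 of 85 on TPM.

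The functional parts of the ribosome gave the same picture of small differences, none of which passed the test. The stalk proteins Rplp0, Rplp1 and Rplp2 recruit elongation factors to the large subunit. Rplp0 had 3592, 3882, 3667 and 3804 CPM in HET and 3713, 3599, 3181 and 3562 CPM in WT. Its log2 fold change was 0.09 ± 0.06 (SE, adjusted p = 0.795 by edgeR), and the groups overlapped. Rplp1 and Rplp2 gave 0.10 and 0.09, and both overlapped as well. Rpl5 and Rpl11 form a particle with the smallest ribosomal RNA, which also binds Mdm2 when ribosome assembly fails. Their log2 fold changes were 0.04 ± 0.08 and 0.05 ± 0.07 (SE). Rpl11 was even across the libraries, from 1151 to 1368 CPM, whereas Rpl5 had 1502 CPM in WT replicate 4 and 1667 to 1953 CPM in the other libraries.

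On the small subunit, Rpsa, the laminin receptor homologue, had 2139, 2162, 2087 and 1861 CPM in HET and 2065, 1933, 1893 and 1895 CPM in WT. The libraries overlapped and the log2 fold change was 0.08 ± 0.07 (SE). Rps6, the substrate of S6 kinase, ranged from 1590.2 to 1772 CPM in HET and from 1530 to 1714 CPM in WT. Rps19, the gene most often mutated in Diamond-Blackfan anemia, ranged from 2613 to 3060 CPM in HET and from 2413 to 3083 CPM in WT. Rps3 at the mRNA entry ranged from 2228 to 2458 CPM and from 2186 to 2629 CPM, and Rps27a, which is made as a fusion with ubiquitin, from 1459 to 1639 CPM and from 1405 to 1692 CPM. For each of these 4 genes the estimate was within 0.04 of 0 on the log2 scale and its sign changed with the setting.

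On the large subunit, Rpl10, which joins late near the catalytic center, ranged from 1764 to 1983 CPM in HET and from 1680.0 to 1940.0 CPM in WT. Rpl38, known for its part in translating Hox mRNAs, had 762, 734, 727 and 780.2 CPM in HET and 702, 743, 623 and 739 CPM in WT, with a log2 fold change of 0.10 ± 0.08 (SE). Rpl3, at the peptidyl transferase center, was even, from 1717 to 1798 CPM in HET and from 1753 to 1895 CPM in WT. The abundant Rpl41 and Rpl13 had log2 fold changes of 0.10 and 0.03, and the latter was at -0.01 on TPM, where the median of all genes was -0.03. Rpl28 and Rpl31 had estimates of 0.17 ± 0.10 and 0.15 ± 0.08 (SE), with adjusted p-values of 0.740 and 0.764 by edgeR. The lowest estimates among members with a mean of at least 50 counts were -1.08 ± 0.65 for the retrocopy Rps4l, -0.21 ± 0.41 for Rps10, -0.06 for Rpl39, -0.05 for Rps4x and -0.04 for Rpl27a. Rps4l had 2.17, 4.92, 3.00 and 13.0 CPM in HET and 25.1, 3.25, 13.8 and 6.47 CPM in WT, so its libraries scattered 11.6-fold and overlapped. Rps3a3, with an estimate of 0.21 ± 0.38 (SE), had 24.2 CPM in HET replicate 1 and 8.16 to 12.5 CPM in the others.

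Sets of members were described by counts alone. Of the 11 members mutated in Diamond-Blackfan anemia 10 had an estimate above 0 (median 0.04), of the 9 at the peptide exit tunnel 6 (median 0.04), and of the 6 at the mRNA entry and exit 5 (median 0.09). On the count scale 27 of 36 tested small-subunit genes and 40 of 49 large-subunit genes lay above 0. None of these members except Rps27l reached an unadjusted p under 0.05. Proteins of the ribosome that the name rule misses had similar estimates: Fau 0.06 and Rack1 0.11, with none called, while Rpl36al was too sparse to read (0.518 to 8.04 CPM).

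Rps27l was the member that stood apart most. It is a paralogue of Rps27 that takes the same place in the small subunit, and it is known as a p53 target. Its coding sequence, read from GENCODE M21 transcripts, has the same length as that of Rps27, 255 bases, and the genes were set side by side to see whether their reads could be told apart. They were identical at 194 of 255 bases (76.1%), with a longest identical stretch of 11 bases. Capitals mark the 61 bases that differ, and both are shown 5′ to 3′ from the start codon.
Rps27l (chr9:66946086-66949516, plus): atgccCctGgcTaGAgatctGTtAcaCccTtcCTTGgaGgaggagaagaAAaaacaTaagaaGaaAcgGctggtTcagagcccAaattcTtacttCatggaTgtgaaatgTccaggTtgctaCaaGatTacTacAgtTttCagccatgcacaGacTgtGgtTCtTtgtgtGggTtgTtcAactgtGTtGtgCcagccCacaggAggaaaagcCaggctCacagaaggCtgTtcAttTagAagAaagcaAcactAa
Rps27 (chr3:90212522-90213651, minus): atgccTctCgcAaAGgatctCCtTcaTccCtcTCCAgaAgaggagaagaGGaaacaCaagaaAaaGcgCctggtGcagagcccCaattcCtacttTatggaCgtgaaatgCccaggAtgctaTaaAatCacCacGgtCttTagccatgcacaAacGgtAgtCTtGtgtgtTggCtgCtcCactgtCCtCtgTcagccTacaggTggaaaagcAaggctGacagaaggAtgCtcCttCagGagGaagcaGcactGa
The differences are spread along the whole frame.

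Rps27l had 209, 195, 195 and 181 CPM in HET and 150.4, 178, 126 and 137 CPM in WT. Every HET library lay above every WT library, although HET replicate 4 and WT replicate 2 were close. HET libraries averaged 195 ± 11.8 CPM and WT libraries 148 ± 22.2 CPM (SD, n = 4 each), a fitted 1.32-fold difference. The log2 fold change was 0.40 ± 0.12 (SE, 95% interval 0.14 to 0.66), with an adjusted p of 0.492 by edgeR, so it did not pass the test over all genes. DESeq2 gave an adjusted p of 0.118. The log2 fold change ranged from 0.34 to 0.50 when single libraries were left out and was 0.36 on TPM. Since every HET library lay above every WT library in CPM, leaving out a single library could not turn its sign. Rps27 itself had 3772, 3881, 4221 and 3551 CPM in HET and 4040.1, 3818, 3673 and 3617 CPM in WT, with a log2 fold change of 0.03 ± 0.06 (SE). Rps27l made up 5.26%, 4.78%, 4.41% and 4.84% of the counts of the pair in HET and 3.59%, 4.45%, 3.33% and 3.65% in WT. By this ratio, which does not depend on library scaling, WT replicate 2 lay just above HET replicate 3, so the groups overlapped.

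Since p53 is known to induce Rps27l, other p53 targets were described, in a list chosen after the value of Rps27l had been seen. Of the 10 tested, 6 had an estimate above 0 and 4 below, with a median log2 fold change of 0.03, and none reached an unadjusted p under 0.05. Cdkn1a, the cell cycle inhibitor, had 10.4 CPM in HET replicate 1 and 0.835 to 3.15 CPM in the other libraries. Bax had 86.6 to 120.3 CPM in HET and 80.3 to 109 CPM in WT. Mdm2, the ligase that degrades p53, had 56.6 to 77.2 CPM in HET and 47.8 to 78.4 CPM in WT.

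**Figure D4:**
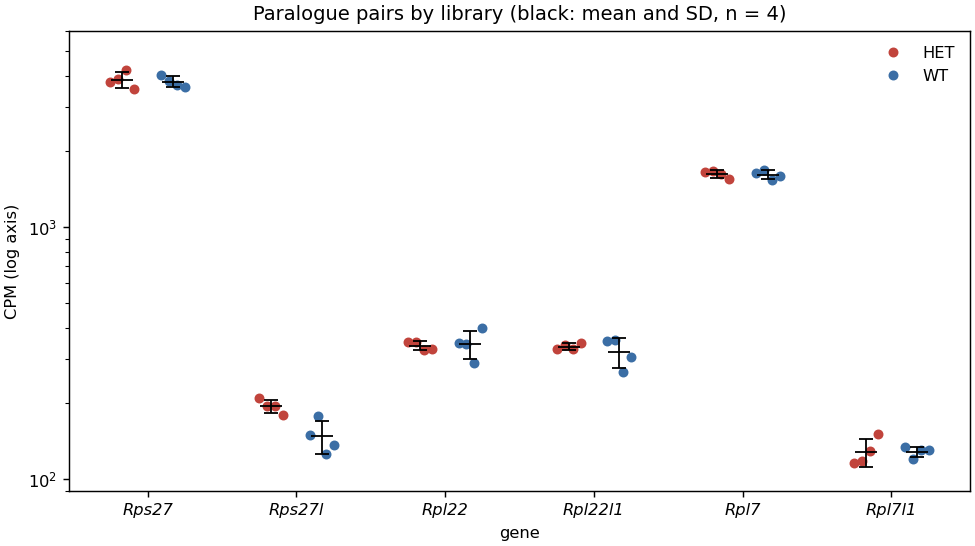
CPM (log axis) of the paralogue pairs Rps27 and Rps27l, Rpl22 and Rpl22l1, Rpl7 and Rpl7l1 in the 4 HET (red) and 4 WT (blue) libraries, with the mean and SD of each group in black. For Rps27l the HET points (181 to 209 CPM) all lie above the WT points (126 to 178 CPM), and the other genes overlap.

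The other paralogues did not separate the groups. Rpl22, needed for T cell development, and its paralogue Rpl22l1 are identical at 70.2% of 369 aligned coding bases. Rpl22 had 351, 351, 327 and 327 CPM in HET and 348, 345, 288 and 397 CPM in WT. Rpl22l1 had 328, 340.4, 328 and 348 CPM in HET and 355, 358, 265 and 304 CPM in WT. The pair was thus about evenly counted, with Rpl22l1 at 43.4% to 51.5% of pair counts over the 8 libraries and at 77.6% of their TPM. With counts divided by annotated exon length in place of the lengths behind the deposited TPM, its share was 58.3%. The log2 fold changes were -0.02 ± 0.10 for Rpl22 and 0.07 ± 0.10 for Rpl22l1 (SE), and single libraries turned both. Rpl7l1 held 6.50% to 8.87% of the counts of its pair with Rpl7 and had 116 to 151 CPM in HET and 119.8 to 134 CPM in WT, with a log2 fold change of -0.00 ± 0.12 (SE). Rpl39l, a paralogue best known from testis, was at 0 counts in 7 of the 8 libraries, which allows up to 0.239 to 0.451 CPM for 3 counts, and had 2.33 CPM from 18 counts in HET replicate 2. Its coding sequence is identical to that of Rpl39 at 85.3% of 156 bases, and Rpl39 had 583 to 670 CPM in HET and 598 to 693 CPM in WT. No row was found for Rpl3l or Rpl10l.

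The sizes above rest on a small spread between repeats. The coefficient of variation (CV) of CPM within groups had a median of 6.65% over the 77 members at 100 CPM or more, from 2.74% to 11.4%, and 11.5% over the 1597 other genes at that level. Members are more highly expressed than most of these, and higher counts go with lower CV. Among genes at 1000 CPM or more the medians came closer, at 6.21% for 55 members and 7.52% for 68 other genes. In that range the CV was under 10% for 100% of the members and for 72.1% of the others. This is a description of sorted repeats of a pool and does not include variation between mice.

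**Figure D5:**
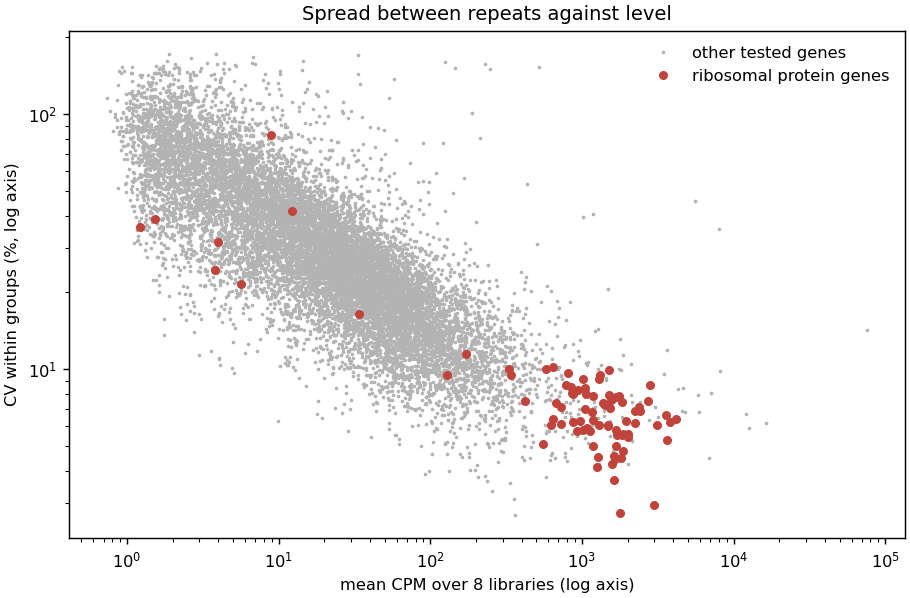
CV of CPM within groups (%, log axis) against mean CPM over the 8 libraries (log axis) for the 85 tested members (red) and the other tested genes (grey). Most members lie at the lower right, at high CPM and a CV under 10%, and the few at under 50 CPM have CVs of 16.4% to 83.0%.

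Lastly, genes around the ribosome were described for comparison. Translation factors whose mRNAs carry the TOP motif, such as the elongation factors Eef1a1 and Eef2, had estimates above 0 for 12 of 16 (9 of 16 on TPM), with a median log2 fold change of 0.09 and none at an unadjusted p under 0.05. Without WT replicate 4 this was 8 of 16 and a median of 0.03. Eef1a1 had 6592 to 7026 CPM in HET and 6642 to 7592 CPM in WT. For 7 host genes of small nucleolar RNAs the median was 0.15 and 4 were above 0, and for 8 chaperones and assembly factors it was 0.00 and 4 were above 0. None of the 15 reached an unadjusted p under 0.05. Among 11 regulators 7 were above 0. At an unadjusted edgeR p under 0.05, where 3.88% of all genes were lower in HET, 1 regulator was lower. This was Mdm4, the partner of Mdm2, with 104, 83.0, 82.1 and 76.4 CPM in HET and 113, 95.8, 125 and 128 CPM in WT (log2 fold change -0.42 ± 0.14, adjusted p = 0.568 by edgeR). Myc itself had 219, 226, 230.1 and 288 CPM in HET and 229.7, 181, 119 and 235 CPM in WT, with a log2 fold change of 0.33 ± 0.18 (SE, adjusted p = 0.740), and its lowest library was again WT replicate 3.

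Factors that build ribosomes and the ribosome of the mitochondrion had larger estimates than the members, though edgeR called none of them either. Of 12 nucleolar factors 10 were above 0, also on TPM, and the median was 0.28. That is 83.3%, against 49.9% of all genes on counts and 44.2% on TPM. At an unadjusted edgeR p under 0.05, 4 had higher levels in HET, namely Nolc1, Npm1, Bop1 and Dkc1, beside 3.34% of all genes. The number of such factors fell to 1 without WT replicate 3, without WT replicate 4, without HET replicate 4 or on TPM. It rose to 7 with DESeq2 and to 6 without HET replicate 1 or without immunoglobulin genes, and was 2 to 5 in the other settings. Nolc1 had 149, 185, 175 and 191 CPM in HET and 149, 143, 106 and 103 CPM in WT, and the groups overlapped at HET replicate 1 (log2 fold change 0.48 ± 0.14, adjusted p = 0.484 by edgeR). Npm1, the most abundant, had 1108 to 1439.9 CPM in HET and 943 to 1364 CPM in WT. Of the 77 mitochondrial ribosomal protein genes 62 were above 0 (56 on TPM), which is 80.5% on counts against 49.9% of all genes and 72.7% on TPM against 44.2%. Their median was 0.179 on counts and 0.115 on TPM. At an unadjusted p under 0.05 there were 9 higher (of all genes 3.34% were) and none lower. The count of 9 became 4 on TPM, 4 without WT replicate 3, 5 without WT replicate 1 or 4 and 14 without WT replicate 2. Mrpl20 had 97.0, 114, 103 and 108 CPM in HET and 71.2, 86.2, 50.5 and 70.5 CPM in WT, without overlap. Its log2 fold change was 0.60 ± 0.16 with an adjusted p of 0.328 by edgeR, and it was the one gene of these lists called by DESeq2 (adjusted p = 0.0496). Whether these lists differ from the cytosolic ribosomal proteins was not tested.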

How the data were processed

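RNA of sorted B cells was sequenced in 8 libraries (4 HET, 4 WT) after SMART-Seq2 amplification. The authors aligned reads with HISAT2 2.2.1 to GRCm38 (mm10) and counted them per gene with HTSeq; how strands and multiply aligned reads were treated, and which annotation was used, is not given in the sources used here. The deposited count table holds whole-number counts for 24259 symbols. The deposited TPM table holds the same counts per fixed gene length, and the source of these lengths is not given in the sources used here. Counts per GENCODE M21 exon length and shares above the median of all genes were added after seeing the data. Reads carry no molecular identifiers, and the exact interval on the share treats each read as independent, so it covers counting error of reads only. The edgeR intervals also include the spread between libraries.

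The count analysis used edgeR 4.0.16 under R 4.3.3 (filterByExpr, 12744 genes holding 99.7% of counts, TMM scaling, robust quasi-likelihood F-test, group as the only factor, Benjamini-Hochberg adjustment over all 12744 genes, threshold 0.05). The SE was taken from the F statistic. CPM values are TMM-scaled. DESeq2 1.42.0, the study's tool, and limma 3.58.1 on log2(TPM + 1) or log2(TPM + 0.1) were alternatives, with others of scaling, filter, replicate block and left-out libraries, 20 in all. Scripts were tested on simulated data. Members, lists and tests were chosen with earlier results of these data known. Named genes were a panel of subunit parts and paralogue pairs, the 5 highest by TPM and, among tested members with a mean of at least 50 counts, the 5 highest and 5 lowest fold changes and the 5 lowest p. Values of some genes covered by these rules are not reported here, in text or figures, while counts and sums include them. No p was adjusted over the members alone and no set test was run.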

Additional observations from a re-analysis of the deposited data

Results flagged for a closer look

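The level of each named member in each group of 4 libraries, with the summed share, the pseudogene share and the subunit ratio, was examined for a library far from the others (Dixon's ratio of the gap to the whole range, limit 0.829). Of 76 groups examined 4 passed, where chance gives about 5%. Rplp2, a stalk protein, had 723 CPM in WT replicate 3 and 879 to 908 CPM in the other WT libraries (ratio 0.844). Rps6 had 1530 CPM in WT replicate 3 and 1694 to 1714 CPM in the others (ratio 0.888). Rpl5 had 1502 CPM in WT replicate 4 and 1769 to 1816 CPM in the others (ratio 0.849). Rpl39l had 2.33 CPM in HET replicate 2 and 0 in the other HET libraries (ratio 1).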

How the results depend on the processing

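No member was called under any of the 20 alternatives. Of all genes, 77 were called with DESeq2, 38 without a filter and 0 to 7 in each other setting. So few calls leave little room for members among them, and the absence of called members is not read as a result about the family. The count of members at an unadjusted p under 0.05 was 1 in the main fit, beside 3.34% of all genes higher in HET and 3.88% lower. It became 3 with DESeq2, RLE size factors, TMM scaling without the members or the replicate block. Without a filter, on TPM (1 higher, 1 lower) or without immunoglobulin genes it was 2. When single libraries were left out it ranged from 1 to 7. It was 7 without HET replicate 4 (6 higher in HET, 1 lower) and 5 without WT replicate 2 (4 higher, 1 lower). The share of all genes is not given for these settings, so the counts are not read as a result about the members. The cause of these changes was not tested. The share of members above 0 was 45.9% on log2(TPM + 1) and log2(TPM + 0.1) and 46.5% on TPM with a mean of at least 1, where 44.2%, 44.5% and 44.3% of all genes were above 0. The count of called genes of the other lists was 1 with DESeq2 and 0 otherwise.

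Correlations of deviations of same-numbered libraries ran from -0.0442 to 0.0244, so replicate numbers do not pair libraries; with the replicate block 0 members and 0 of all genes were called, against 3 genes without it. Of 34 named members 18 turned sign somewhere, with small values (log2 fold changes). On TPM, in each of its 3 forms, where the median of all genes was -0.03 to -0.05, Rpl5, Rpl10 and Rpl11 were at 0.00, Rpl13 and Rps27a at -0.01, Rps19 and Rps29 at -0.02, Rps6 and Rps27 at -0.03 and Rpl7 at -0.04. Rpl7l1 was at 0.00 with DESeq2, RLE or TMM without the members. Rps10 was at 0.04 with pseudogene rows added. Over left-out libraries the ranges were -0.02 to 0.06 for Rpl13, -0.09 to 0.05 for Rpl22, 0.00 to 0.13 for Rpl22l1, -0.08 to 0.00 for Rpl27a, -0.02 to 0.08 for Rpl5, -0.01 to 0.03 for Rpl7, -0.09 to 0.05 for Rpl7l1, -0.03 to 0.07 for Rps19, -0.02 to 0.07 for Rps27, 0.00 to 0.09 for Rps27a, -0.04 to 0.06 for Rps29, -0.05 to 0.05 for Rps3, -0.27 to 0.39 for Rps3a3 (lowest without HET replicate 1) and -0.01 to 0.04 for Rps6. Pooling and 4 repeats per group limit what these data show to the repeats of 1 pool per group.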
